A study of Mus musculus with 2 samples.

Results

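Pitx1, 6 T-box genes and the Meis genes Meis1 and Meis2 encode transcription factors of limb and trunk mesenchyme. Of these, Pitx1, Tbx4 and Tbx5 mark in which limb a cell arose. The messenger RNA of all 9 genes was followed here in mouse embryonic fibroblasts (MEFs), cells grown out of embryonic connective tissue. The 9 genes were taken by exact symbol from the platform annotation of the array, which gave 23 probe sets among 45101, and 9 genes among 18193 with a probe set of their own. They were picked with the results of these arrays known, so all their values are a description and none is a test. The study set 1 array of Fut8+/+ MEFs, with both normal copies of Fut8, against 1 array of Fut8-/- MEFs, in which both copies are disrupted. Fut8 encodes the enzyme that adds core fucose to N-glycans. The arrays also differed in sex-linked transcripts, given below, so sex and genotype cannot be told apart here. Both cultures were grown in the same serum-containing medium with antibiotics, and the labels name no treatment, time point, embryo age or dissected body region. The design text speaks of 3 cultures per genotype, but the labels do not say how many dishes gave the RNA of each array.

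In the embryo Pitx1 is switched on in the hindlimb field and not in the forelimb field, where it acts upstream of Tbx4 and helps give the leg its shape. Tbx5 plays the matching part in the forelimb, and both Tbx4 and Tbx5 start limb outgrowth through Fgf10. Tbx2 and Tbx3 are repressors that work along the edges of the limb bud and also hold back cell cycle inhibitors. Tbx15 and Tbx18 are close relatives that act in the skeleton of the shoulder girdle, the dermis and the somites. Meis1 and Meis2 are homeodomain proteins of the TALE class that mark the part of the limb nearest the trunk and bind DNA together with Pbx and Hox proteins.

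Values are the authors' deposited signal intensities, printed as deposited, 1 per probe set and array. For ratios the Fut8-/- signals were multiplied by 1.16, which brings to 0 the median log2 ratio of those probe sets that exceed the 40th percentile of each array. Scaled signals under 12.3 were raised to that floor, so that where 1 array is at the floor only a bound can be given. A gene counts as measured where its brighter array reached a scaled signal of 39.1, and as higher or lower where its ratio reached 2-fold. With 1 array per genotype no difference has a replicate check and no p-value is given. The only error available is technical: probe sets of the same gene differed in log2 ratio with an SD of 0.40, or 1.32-fold (5389 genes).

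Pitx1, Tbx18 and Tbx15 were higher in Fut8-/- cells, by 16.9-fold, 11.4-fold and 4.28-fold, whereas Meis1 was 4.11-fold lower. Tbx3 and Meis2 were measured and lay within 2-fold. The remaining 3 genes, Tbx2, Tbx4 and Tbx5, were too dim on both arrays to count as measured. Of the 6 measured genes, 3 were therefore higher and 1 lower, where 6.08% of all 10164 measured genes were higher and 8.46% lower. Those shares are 618 and 860 genes, which became 416 and 1205 without centring, while the members' counts did not change. Their median log2 ratio was 1.10, beside 0.00033 over all measured genes. Among genes as bright as these, with a brighter scaled signal from 100 to 1000, 5.11% were higher and 7.75% lower. Pitx1, Tbx18 and Meis1 passed the limit for measured genes on 1 array only, so those 3 had to differ, and the counts support nothing beyond this description.

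**Figure D1:**
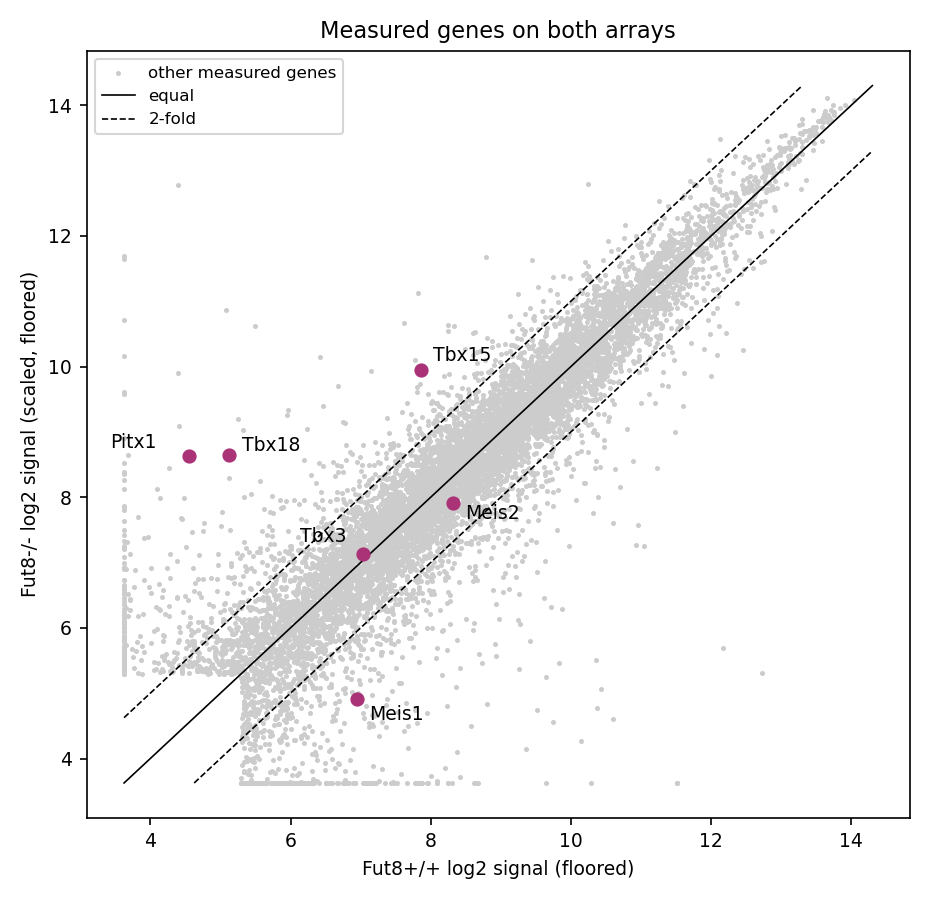
Each grey point is a measured gene, with its floored log2 signal on the Fut8+/+ array on the horizontal axis and its scaled, floored log2 signal on the Fut8-/- array on the vertical axis. The solid line marks equal signals and the dashed lines 2-fold. Pitx1, Tbx18 and Tbx15 lie above the upper 2-fold line, Meis1 lies below the lower one, and Tbx3 and Meis2 lie between them.

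Pitx1 was 16.9-fold higher in Fut8-/- cells, the largest ratio of the 9 genes at the settings used here. With the floor raised to the 60th percentile the Fut8+/+ signals of Pitx1 and Tbx18 both fall to the floor, which leaves bounds of at least 10.1-fold and at least 10.2-fold with no order between them. With a pseudocount of 16 in place of the floor Pitx1 was 10.4-fold higher. Its brighter probe set (1449488_at) had a signal of 23.4 in Fut8+/+ cells and 340 in Fut8-/- cells. The second probe set (1419514_at) went from 12.8 to 159. Both were therefore low in Fut8+/+, the second just above the floor, and clearly above the measured limit in Fut8-/-. Their log2 ratios of 4.08 and 3.85 differed by less than the SD between probe sets of a gene. Among the 9908 measured genes above the floor on both arrays, whose ratios can be ordered, Pitx1 ranked 8 from the highest. The measured genes nearest to it by Euclidean distance over the log2 signals of the 2 arrays were Kcnd3 (19.2 and 300.3), Ces1g (21.3 and 469) and Tbx18 (distances of 0.34, 0.48 and 0.58). A likeness over 2 arrays describes these signals only.

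Pitx1 lies on chromosome 13, whose genes as a group had higher signals in Fut8-/-. Of 377 measured genes on that chromosome 73 were higher and 9 lower, and their median log2 ratio was 0.56. Among the 20 measured genes nearest to Pitx1, 8 were higher and 0 lower (median 0.90). Less the median of its chromosome, the log2 ratio of Pitx1 was 3.51. Gene order came from the RefSeq gene table of assembly GRCm38.p6.

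Tbx4 and Tbx5, which with Pitx1 mark in which limb a cell arose, were dim. Tbx4, the hindlimb T-box gene, had signals of 4.77 and 15.0 at its brighter probe set (1426321_at) and 2.93 and 10.6 at the other. Tbx5, its forelimb counterpart, had signals of 4.65 and 18.5 at one probe set (1425695_at) and 6.06 and 13.5 at the other. All 4 probe sets were below the floor in Fut8+/+ and, once scaled, above it in Fut8-/-. None reached the measured limit, so no level or direction is drawn for either limb gene. The bounds were at least 1.42-fold for Tbx4 and at least 1.74-fold for Tbx5, and these depend on the floor. With the floor at the 20th percentile both genes lay above it on both arrays, and their plain ratios were 3.67-fold and 4.64-fold. Raising it to the 60th left both genes at the floor on both arrays. Fgf10, the limb outgrowth signal that Tbx4 and Tbx5 act through, was also under the measured limit, with signals of 19.3 and 10.0.

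Tbx3 lay within 2-fold at its 3 brightest probe sets, and Tbx2 was too dim to show a difference. The 1 probe set of Tbx2 (1422545_at) was below the floor on both arrays, with 6.50 and 3.05. Tbx3 had signals of 131 and 120 at its brightest probe set (1448029_at), a log2 ratio of 0.10, which was -0.12 without centring. The next brightest (1437479_x_at) gave 79.0 and 50.5, a log2 ratio of -0.43, and the third (1445757_at) gave 21.8 and 17.3. The 2 others were dimmer still, at 18.1 and 2.47 (1439567_at) and at 0.68 and 1.72. With the Fut8-/- array at the floor, 1439567_at was at least 1.47-fold lower, which does not settle whether it passes 2-fold. In Affymetrix naming the ending x_at marks probes that can also bind other transcripts. Its 3 brightest probe sets thus lay above the floor on both arrays, with ratios within 2-fold.

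The genes that Tbx2 and Tbx3 are known to repress or act on gave 0 of 5 measured members past 2-fold in either direction, with a median log2 ratio of -0.39. The cell cycle inhibitor gene Cdkn2a had signals of 1590 and 1885 (log2 ratio 0.46). Ndrg1, a stress-responsive gene, had 637 and 291 (-0.91) and the gap junction gene Gja1 4868 and 2453 (-0.77). The E-cadherin gene Cdh1 was below the floor on both arrays.

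**Figure D2:**
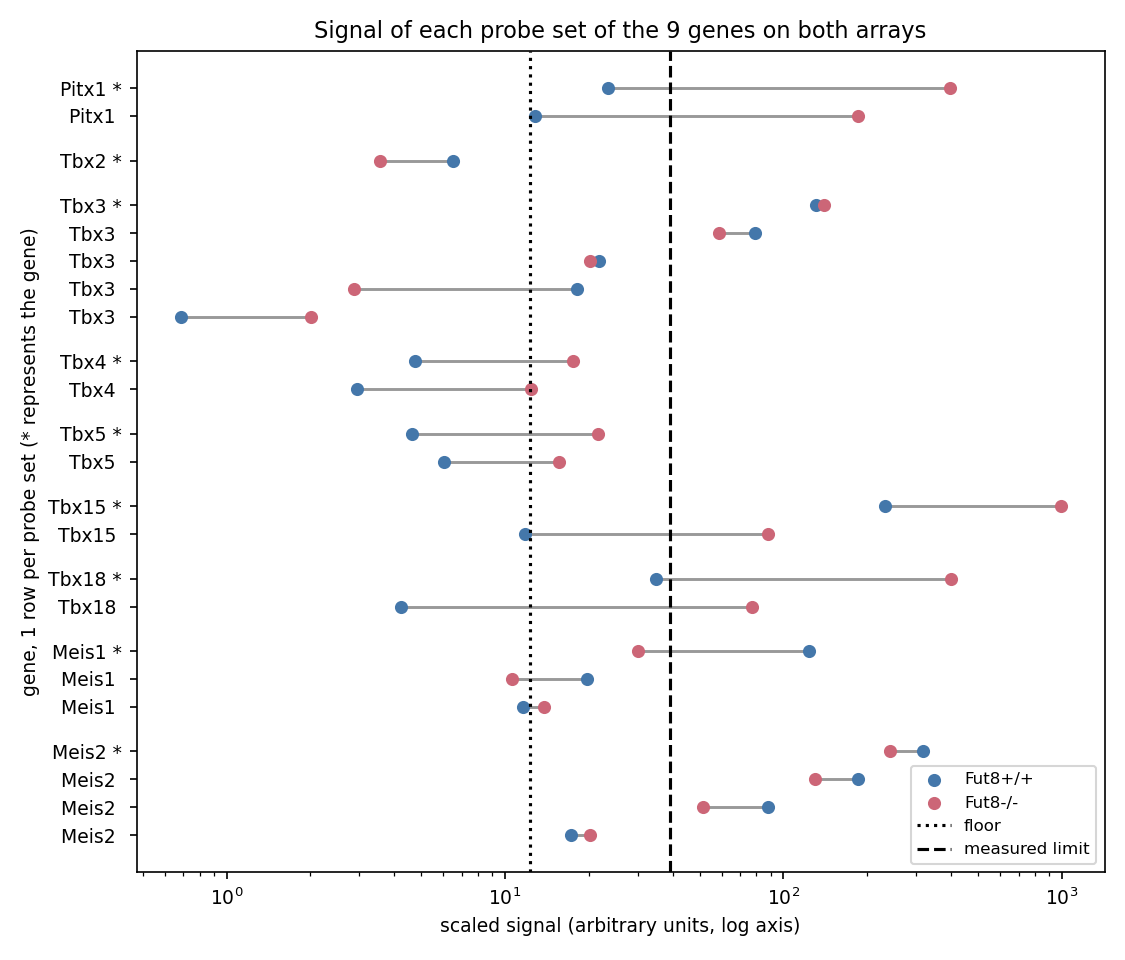
Each row is 1 of the 23 probe sets, grouped by gene, with its scaled signal on a log axis for Fut8+/+ (blue) and Fut8-/- (red); an asterisk marks the probe set that stands for the gene. Both probe sets of Pitx1, Tbx15 and Tbx18 run to the right in Fut8-/-, the 3 brightest of Meis2 run to the left, and those of Tbx2, Tbx4 and Tbx5 stay under the measured limit of 39.1.

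Tbx15 and Tbx18, the relatives that act in the shoulder girdle and dermis, were both higher in Fut8-/- cells. Tbx18 had signals of 35.0 and 343 at its brighter probe set (1429974_at), with a log2 ratio of 3.51. At the other (1449871_at) the signals were 4.23 and 66.3, at least 6.25-fold higher with the Fut8+/+ array at the floor. Tbx15 had signals of 231 and 852 at its brighter probe set (1418755_at), with a log2 ratio of 2.10. Unlike Pitx1 and Tbx18, Tbx15 was well above the measured limit on both arrays. Its second probe set (1422195_s_at, an ending for probes shared by several transcripts) went from 11.8 to 75.5, at least 7.12-fold. So all 4 probe sets of this gene pair were higher in Fut8-/-.

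Among the 9908 ordered genes, Tbx18 ranked 16 and Tbx15 ranked 84 from the highest. Tbx18 is on chromosome 9, where the median log2 ratio of 577 measured genes was 0.041, and its 20 nearest measured genes had a median of -0.32 (1 higher, 2 lower). Over that chromosome 29 genes were higher and 49 lower. Tbx15 is on chromosome 3, where 68 of 519 measured genes were higher and 33 lower (median 0.24), the second highest median among the autosomes after chromosome 13. Of its 20 nearest measured genes 1 was higher and 0 lower (median 0.42). Less the medians of their chromosomes, the log2 ratios were 3.47 for Tbx18 and 1.86 for Tbx15.

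Meis1 was lower in Fut8-/- cells, whereas Meis2 lay within 2-fold; the difference between these relatives was not tested. Meis1 had signals of 123 and 25.9 at its brightest probe set (1450992_a_at), a log2 ratio of -2.04. Its other 2 probe sets were near the floor on both arrays, with 19.7 and 9.09 at 1443260_at and 11.6 and 11.8 at 1459423_at. The lower Meis1 level thus rests on 1 probe set, since the other 2 give only bounds, in opposite directions. With the Fut8+/+ array at the floor, 1459423_at was at least 1.12-fold higher in Fut8-/- after centring. The median over all 3 is the value of 1443260_at, at least 1.60-fold lower with the Fut8-/- array at the floor, which does not settle whether it passes 2-fold. Meis1 ranked 156 from the lowest of the 9908 ordered genes. Its 20 nearest measured genes on chromosome 11 had a median of -0.31, with 3 lower and 0 higher.

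Meis2 had signals of 318 and 208 at its brightest probe set (1457632_s_at), 185 and 112 at the second (1417129_a_at) and 88.1 and 44.2 at the third (1447861_x_at). All 3 were lower in Fut8-/- by less than 2-fold, with log2 ratios of -0.39, -0.50 and -0.78. The brightest and the third have the endings for probes that are shared by several transcripts or can also bind others. The remaining, dim probe set gave 17.2 and 17.4, which is 0.23 after centring. Without centring, the log2 ratios of the 3 brightest were -0.61, -0.72 and -0.997, the last just short of 2-fold, and that of the dim one was 0.011.

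**Figure D3:**
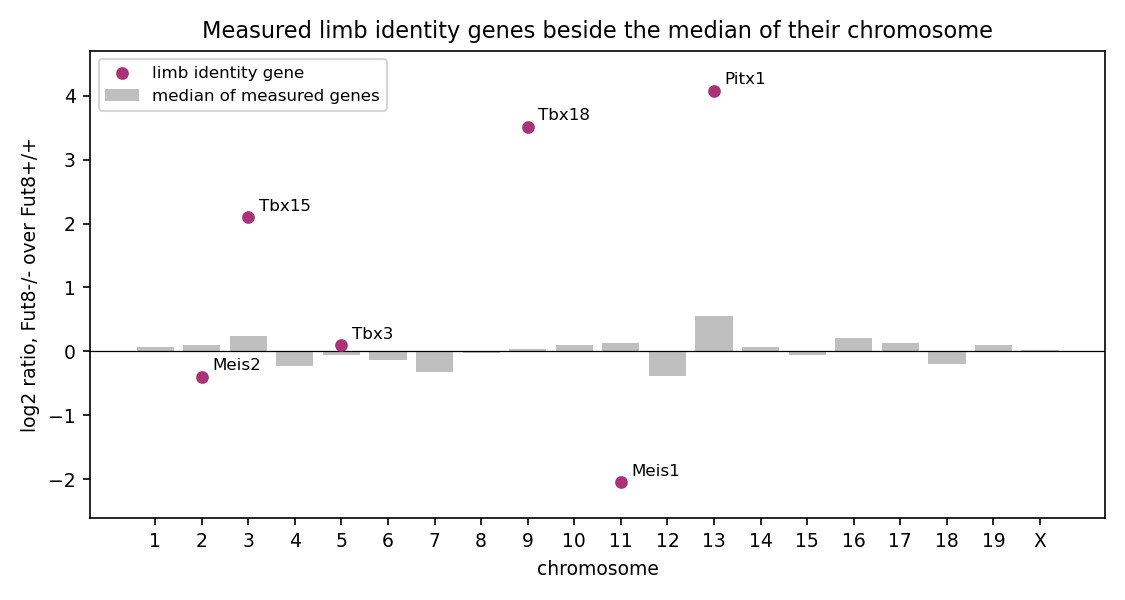
Grey bars give the median log2 ratio of Fut8-/- over Fut8+/+ over all measured genes of each chromosome, and points give the 6 measured limb identity genes at their own chromosome. Of the bars shown, that of chromosome 13 is the highest, at 0.56, and Pitx1 lies 3.51 above it; Tbx18, Tbx15 and Meis1 also lie far from their bars.

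The promoters of Tbx18, Meis1 and Meis2 are shown because Tbx18 was higher, Meis1 lower and its relative Meis2 within 2-fold. RefSeq promoter entries (build GRCm38.p6) matched 4 of the 9 genes: Tbx4, Tbx18, Meis1 and Meis2. The 250 bases before the start are printed 5′ to 3′ in the direction of the gene, with capitals for letters that match any of 6 motifs searched on both strands. The 3 regions are chr9:87731261-87731510 (minus strand) for Tbx18, chr11:19018970-19019219 (minus strand) for Meis1 and chr2:116064620-116064869 (minus strand) for Meis2.
Tbx18: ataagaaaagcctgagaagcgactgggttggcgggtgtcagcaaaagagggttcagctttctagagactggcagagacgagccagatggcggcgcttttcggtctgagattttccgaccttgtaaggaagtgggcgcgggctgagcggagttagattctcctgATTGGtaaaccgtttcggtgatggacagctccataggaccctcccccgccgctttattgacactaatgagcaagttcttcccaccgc
Meis1: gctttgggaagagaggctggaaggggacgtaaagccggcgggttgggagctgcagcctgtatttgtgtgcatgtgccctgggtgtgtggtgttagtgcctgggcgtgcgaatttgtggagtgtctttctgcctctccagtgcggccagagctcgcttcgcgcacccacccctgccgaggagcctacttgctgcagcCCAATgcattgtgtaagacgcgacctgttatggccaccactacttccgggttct
Meis2: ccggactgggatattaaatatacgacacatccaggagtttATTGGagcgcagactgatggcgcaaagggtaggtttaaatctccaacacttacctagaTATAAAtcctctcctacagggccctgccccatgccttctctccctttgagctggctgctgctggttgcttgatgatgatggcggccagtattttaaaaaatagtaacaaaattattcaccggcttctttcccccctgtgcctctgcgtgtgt
The motifs were the T-box core AGGTGT, the Meis site TGACAG, the Pitx site TAATCC, the TATA box TATAAA, the CCAAT box CCAAT and the GC box GGGCGG. The capitals in Tbx18 are a CCAAT box on the other strand starting at position -87 from the gene start. Meis1 has a CCAAT box at -54. Meis2 has a CCAAT box on the other strand at -210 and a TATA box at -152. The T-box core, the Meis site and the Pitx site had 0 matches in these 3 windows and in that of Tbx4; over all 32851 promoter windows of this length they are found in 11.8%, 15.9% and 6.25%. The TATA, CCAAT and GC boxes are found in 12.4%, 33.8% and 32.7%. The arrays measured no binding to these sequences.

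Other genes of the same families were mostly dim or within 2-fold. Of 11 other T-box genes, 9 were analysed here and 1 was measured, Mga, with signals of 211 and 108 (log2 ratio -0.74). Among other Pitx and TALE homeobox genes 8 of 11 analysed were measured, of which 2 were higher and 0 lower (median 0.28). Pknox2, a TALE relative of Meis, went from 3.72 to 91.0, at least 8.57-fold. Irx3, a proximal limb factor, went from 18.3 to 50.2, 3.19-fold. The Meis cofactor genes Pbx2 (244 and 267) and Pbx3 (1014 and 752) lay within 2-fold.

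Signals of limb outgrowth were measured for 9 of 27 genes, with 3 higher, 2 lower and a median log2 ratio of 0.44. Bmp4, a growth factor of the limb bud, was 7.62-fold higher, with signals of 88.3 and 578. Ptch1, the Hedgehog receptor and a target of that pathway, was 4.98-fold higher, with 219 and 940; it too lies on chromosome 13. The fibroblast growth factor receptor gene Fgfr1 was 2.50-fold lower (470.5 and 162). Shh and Fgf8, which pattern the bud from its margin and its ridge, were below the floor on both arrays.

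Transcription factors of limb mesenchyme were measured for 11 of 26 genes, with 3 higher and 3 lower (median 0.26). Alx1, a homeobox gene of craniofacial mesenchyme, went from 272 to 7.03, at least 22.0-fold lower. Prrx1, which marks early limb mesenchyme, went from 221 to 7.26, at least 17.9-fold lower. The FGF-responsive gene Etv5 was 2.95-fold lower (112 and 32.6). The members of this list that were higher were Msx1, Prrx2 and Msx2, at 2.63-fold, 2.45-fold and 2.50-fold. Like Pitx1, Msx2 lies on chromosome 13, where the median log2 ratio was 0.56.

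Hox genes typical of forelimb and hindlimb levels gave ratios in both directions or within 2-fold. Of 7 measured forelimb-level Hox genes, 2 were higher and 1 lower (median log2 ratio 0.52). Hoxb5 went from 14.8 to 45.6, 3.59-fold, and Hoxc8 from 47.2 to 128, 3.16-fold, whereas Hoxc4 went from 152 to 34.2, 3.83-fold lower. Of the hindlimb-level genes 4 were measured and 0 passed 2-fold in either direction (median 0.49). Hoxc10, a hindlimb gene, had signals of 182 and 257 (log2 ratio 0.71), Hoxc9 98.1 and 134 (0.67) and Hoxc13 129 and 84.4 (-0.39).

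Known targets of the other factors were seldom measured. Among those of Tbx4, Tbx5, Tbx18 or Pitx1, 2 of 7 analysed were measured. Id2, an inhibitor of basic helix-loop-helix factors, was 4.89-fold higher (304 and 1278), and the Pitx1 target gene Pomc had 39.4 and 43.2. Among those of Meis factors 2 of 7 were measured. Hoxb2, a hindbrain Hox gene, was at least 22.0-fold lower, with 272 and 0.60, and the cell cycle inhibitor gene Cdkn1a had 530 and 374 (log2 ratio -0.28).

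**Figure D4:**
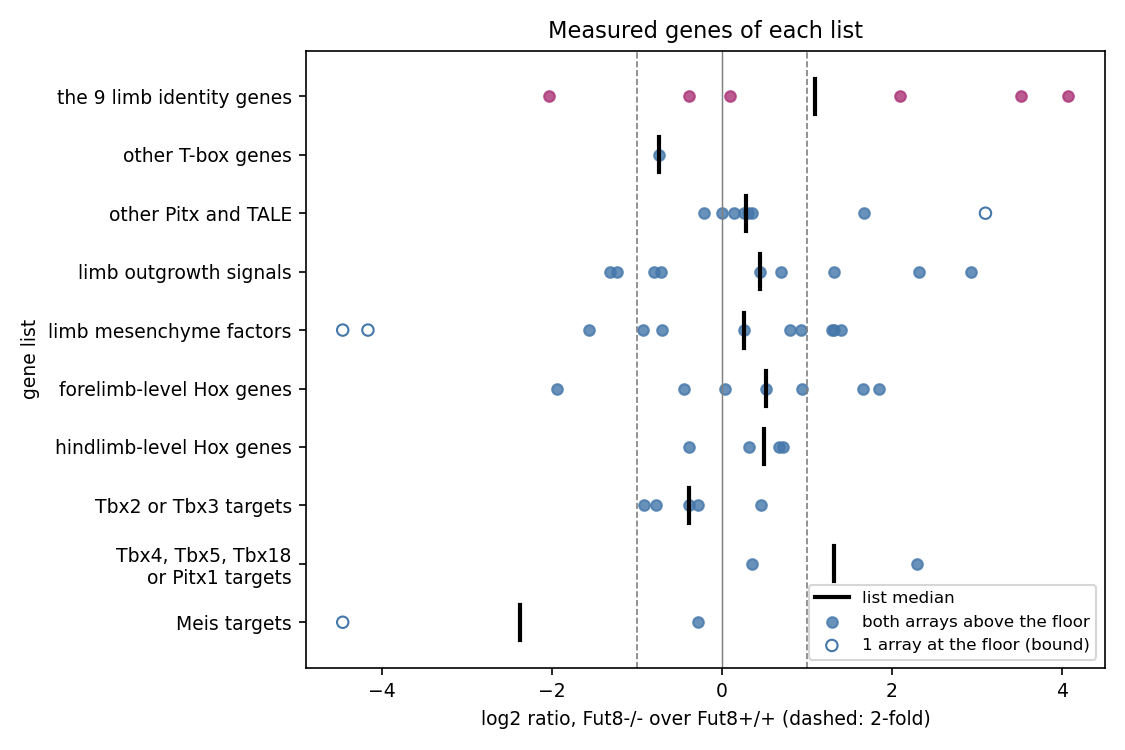
Each point is a measured gene of a list, at its log2 ratio of Fut8-/- over Fut8+/+; open points are bounds with 1 array at the floor, black bars are list medians and dashed lines mark 2-fold. The 9 limb identity genes, of which 6 are measured, span -2.04 to 4.08, and the hindlimb-level Hox genes all lie within 2-fold.

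The Fut8 probe set 1460319_at had signals of 191 and 11.7; the labels do not say whether it reads the disrupted part. Sex-linked transcripts differed as well. The X-inactivation transcript Xist had 656 and 15.2, and the Y-linked gene Eif2s3y 7.06 and 2845. The Fut8+/+ array thus had the pattern of female cells and the Fut8-/- array that of male cells, so sex and genotype cannot be told apart. The part of sex in the differences of the limb genes was not tested.

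The cells carried transcripts of fibroblasts on both arrays, with signals of 11471 and 11110 for Vim and 11280 and 9433 for Col1a2, both within 2-fold. Of 15 fibroblast markers 11 were measured, 1 higher and 4 lower in Fut8-/- (median log2 ratio -0.35). The lower ones were the fibronectin gene Fn1 (4734 and 1254, 3.25-fold), the collagen genes Col5a1 (2515 and 725, 2.98-fold) and Col1a1 (2832 and 941, 2.59-fold), and the receptor gene Pdgfra (61.9 and 23.6, 2.26-fold). The higher one was Pdgfrb (342 and 626, 2.13-fold), and the 4 not measured were Fap, Thy1, Lum and Dcn. T-box genes are also expressed in heart and mesothelium, so markers of other cells are given here as counts of higher and lower genes and as the summed signal over each list. Mesothelial and epicardial markers were measured for 2 of 10, with Krt19 higher (2.08 and 155) and Msln lower (895 and 155), summing to 961 and 366; Wt1 and Upk3b were below the floor on both arrays. Cardiac markers were measured for 3 of 12, 1 higher (Tnnt2, 209 and 406) and 1 lower (Nkx2-5, 165 and 19.2), summing to 505 and 552, and Myh6 and Myl7 were below the floor on both.

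Skeletal muscle markers were measured for 4 of 10, with 2 higher and 1 lower, led by Pax3 (13.7 and 102), and summed to 166 and 233; Myog, Myf5 and Pax7 were below the floor on both arrays. Chondrocyte and bone markers were measured for 2 of 9, 0 higher and 1 lower (Sox5, 41.9 and 8.53), summing to 216 and 119, with Col2a1 below the floor on both. Smooth muscle markers were measured for 4 of 7, 0 higher and 2 lower (Myl9 and Tagln), and summed to 565 and 194. Epithelial markers were measured for 3 of 8, with Krt19 and Dsp higher and Epcam lower, summing to 116 and 308, and Cdh1 and Krt18 were below the floor on both.

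Neural and neural crest markers were measured for 4 of 7, all 4 lower, with Sox2 at 119 and 2.36 and Nes at 522 and 93.9, and summed to 1497 and 362. Markers of leukocytes (2 of 8 measured, summing to 256 and 164) and of endothelium (2 of 8, summing to 315 and 221) gave 0 genes past 2-fold. The part of other cells in the Pitx1, Tbx15, Tbx18 and Meis1 differences was not tested. In RNA of a whole culture, fewer cells that express a gene and less RNA per cell cannot be told apart, and genotype cannot be told apart from any other difference between these 2 cultures.

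**Figure D5:**
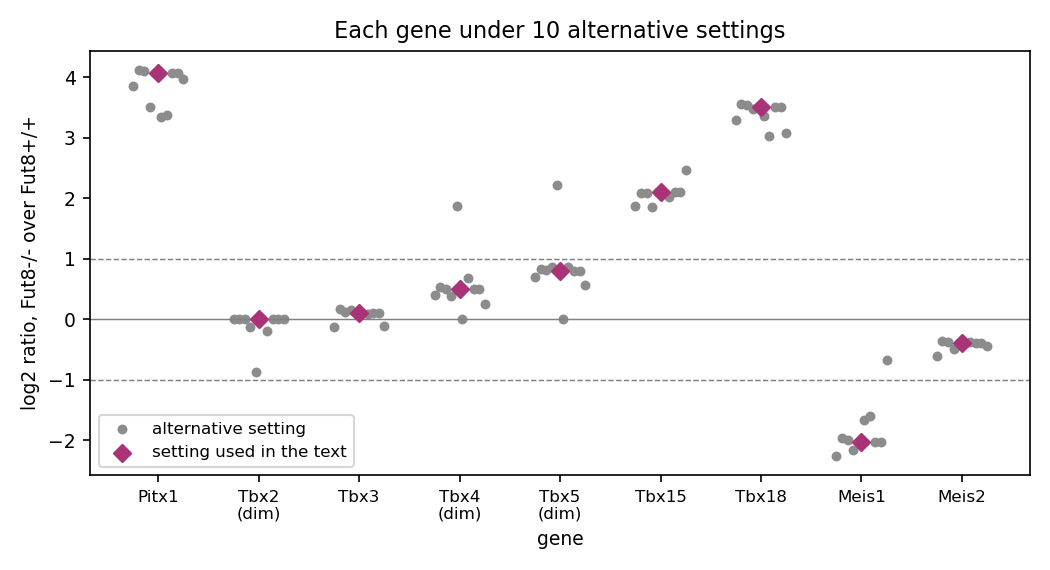
For each of the 9 genes the diamond is the log2 ratio of Fut8-/- over Fut8+/+ used in the text and the grey points are its values under the 10 alternative settings; dashed lines mark 2-fold and (dim) marks genes not measured. Pitx1, Tbx15 and Tbx18 stay above the upper dashed line under all 10 settings, and Meis1 stays below the lower one under 9.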

How the data were processed

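Each array hybridised biotin-labelled RNA, extracted with a silica-column kit, to an Affymetrix mouse array. The authors deposited 1 linear signal intensity per probe set and array, made with GCOS, the Affymetrix operating software, per the submitters' processing notes. No source used here gives its version, algorithm, scaling target or detection calls, so the scale beyond linearity and any centring stay unknown. Column medians were 20.5 (Fut8+/+) and 16.9 (Fut8-/-).

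Gene names came from the platform annotation, which gave 1 symbol to 34945 probe sets. The probe set with the highest mean log2 signal stood for a gene. Centring, floor (40th percentile), measured limit (60th percentile) and the 2-fold limit are explained with the results. The steps were tested on simulated data with noise set by hand, which checks the code and not the error of these arrays. Python 3.11.15 and pandas 2.3.3 were used. The lists were drawn from general knowledge of limb patterning. The members, lists, settings and the 10 alternatives were chosen with earlier results of these data known. The comparison with genes of like brightness and with 20 neighbouring genes was added later. Named genes were all 9 members, up to 3 measured genes of each list with the largest ratios, Fut8, and the 3 genes nearest to Pitx1. Other genes were named after their values were seen. The number of arrays limits the precision.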

Additional observations from a re-analysis of the deposited data

How the results depend on the processing

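No paired analysis was possible because each genotype has 1 array. The 10 alternative settings comprised quantile normalization, loess (span 0.4), no centring, centring within each chromosome, floors at the 20th and 60th percentile, a pseudocount of 16 in place of the floor, no filter, a filter at the 75th percentile and the median over all probe sets of a gene. Pitx1 ranged from 3.34 to 4.12 on the log2 scale, Tbx18 from 3.03 to 3.56, Tbx15 from 1.86 to 2.46, and Meis1 from -2.26 to -0.68. The ratios of these genes did not move with either change of filter or with the floor at the 20th percentile, so those settings do not check them. The lowest Pitx1 value, with the floor at the 60th percentile, and the Meis1 value of -0.68, from the median over probe sets, are bounds with 1 array at the floor. The number of members at least 2-fold higher was 3 in all 10. Those at least 2-fold lower numbered 0 with the median over probe sets, and likewise 0 under the 75th percentile filter, which leaves 4 measured members and drops Meis1. That filter gave a median over members of 2.81, a mean absolute log2 ratio of 2.52, 332 genes higher and 448 lower of 7409, and 10 called genes among the limb, family and target lists in place of 18. Without a filter, which admits the 3 dim members, the median was 0.50 and the mean absolute ratio 1.50 in place of 2.04. Without centring 416 genes were higher and 1205 lower in place of 618 and 860.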
